A study of Oryza sativa Indica Group with 16 samples.

Results

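CIPK proteins (CBL-interacting protein kinases) are plant protein kinases that calcium sensors of the CBL family switch on. The members described here are all rice genes whose symbol or synonym is CIPK or OsCIPK followed by digits alone and that have a probe set assigned by the platform annotation to that gene and no other. They are 34 probe sets of 24 genes, among 57258 probe sets and 17905 genes on the array. Of 30 genes that carry such a name, CIPK3, CIPK9, CIPK13, CIPK15, CIPK27 and CIPK33 had no probe set of their own in this annotation and were not analysed here. The name CIPK22 is only a synonym of the CIPK18 gene. A single probe set stood for 17 of the genes, and 7 genes had 2 or more. Of the probe sets, 4 end in x_at or s_at and 3 in a_at, where a_at marks probes shared by transcripts of the same gene and x_at or s_at marks probes that can match other genes, so that signal from a relative can enter those 4.

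RNA of indica rice seedlings, taken 10 days after germination, was hybridised to 16 Affymetrix rice arrays in 8 groups of 2. CSR27 is a salt-tolerant parent variety and MI48 a salt-sensitive parent variety, while a tolerant and a sensitive bulk pool recombinant inbred lines of either kind. Each of these 4 genotypes was sampled in control conditions and after 24 h in 150 mM NaCl, so that the effect of salt can be set beside the difference between tolerant and sensitive material. The sources used here give neither the number of lines in a pool nor the organ sampled. The series text speaks of biological replications without saying how plants were divided between them, so p-values measure only the spread between these arrays. In RNA from whole tissue, fewer cells of a type and less RNA per cell cannot be told apart.

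When calcium rises in the cell, a CBL protein binds it and docks onto the NAF motif of a CIPK, which frees the kinase domain from its inhibitory tail. The pair then phosphorylates channels and transporters in the membrane to which the CBL is anchored. The best known pair acts in salt stress: CIPK24 (SOS2) with CBL4 (SOS3) activates SOS1, which moves sodium out of the cell. In rice roots CIPK23 with CBL1 activates the potassium channel AKT1.

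Values are probe set signals scaled to a common array median of 18.4, and responses are differences of log2(signal + 4.002), which understates the folds of dim members; values after ± are standard errors (SE) from limma. The 8 bulk arrays had rank correlations of 0.9 to 0.928 with each other. In the bulks the treatment was plain in 5 probe sets of the salt-induced genes RAB16B, RAB21, LEA3-1 and HOX24, whose summed signal was 366 to 675 on control arrays and 6499 to 9471 on salt arrays. The parent arrays differed far more in brightness. Deposited array medians, before scaling, were 14.8 to 26.1 in the bulks. They were 1.9 and 1.5 in MI48 control and 86.3 and 4.6 in MI48 salt. On the CSR27 arrays with rice signal they were 1.9 in control and 1.6 in salt. Scaled parent values thus carry these corrections, which in MI48 run with salt. Rank correlations among the 6 parent arrays with rice signal were 0.645 to 0.766. Some parent arrays stood apart. No rice signal was found on CSR27 control replicate 2 or on CSR27 salt replicate 1, whose rank correlations with any other array did not exceed 0.0101. The array labelled MI48 control replicate 2 went against its label: RAB21, a dehydrin, read 4132 on it, against 29.0 on MI48 control replicate 1 and 3372 on CSR27 salt replicate 2. Over 15596 bright probe sets its log2 values correlated at 0.856 with CSR27 salt replicate 2 and at 0.777 with MI48 control replicate 1. The bulks therefore come first below, and the MI48 response is given with and without that array.

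In the average of both bulks, CIPK10, CIPK7, CIPK21, CIPK25, CIPK23, CIPK18 and CIPK2 each had a probe set that fell with salt, and CIPK5 and CIPK16 rose. Of the 34 members 31 passed the filter on dim values, and of these 2 rose and 10 fell (limma, Benjamini-Hochberg adjusted p at or under 0.05 over 32996 probe sets). Of all probe sets tested 14.9% were called, 2.63% higher and 12.2% lower, and of the tested members 38.7% were called and 32.3% fell. The median member response was -0.21 on the log2 scale (-0.208), beside -0.135 for all probe sets tested, and 22 members were lower and 9 higher. After quantile normalization, which brings the median of all probe sets to -0.004, the median member was at 0.001, 15 members were lower and 16 higher, and 2 rose and 7 fell. The shares of all probe sets called that are given above belong to median scaling and are not the background of these counts. Salt and control arrays did not overlap, over both bulks, for 9 members that were lower and 2 that were higher, beside 12.3% and 3.13% of all probe sets. All 12 called members had the same sign in both bulks, and 6 of the 12 calls held when any 1 of the 8 arrays was left out. The 12 were picked by the average of both bulks, in which opposite responses cancel, so their shared sign is no separate evidence. Fits of the 14 arrays with rice signal or of all 16 arrays, whose shared spread includes that of the parents, called 0 members. Over all probe sets these fits called only 25 and 1, so the 0 is not particular to the members.

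**Figure D1:**
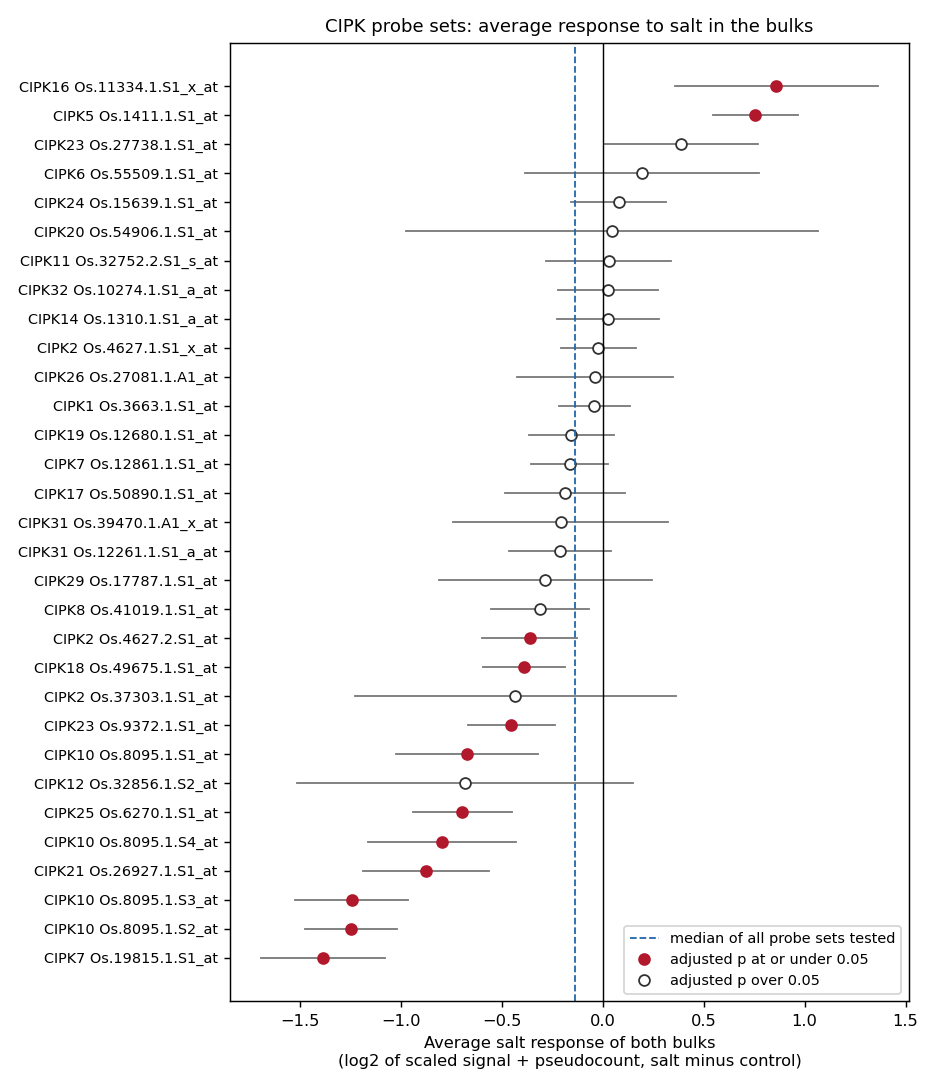
The horizontal axis is the average salt response of both bulks in log2 units for the 31 CIPK probe sets tested, 1 per line, with points for the estimate, bars for its 95% confidence interval from limma and red points for an adjusted p at or under 0.05. CIPK7 and CIPK10 lie farthest to the left, CIPK16 and CIPK5 farthest to the right, and the dashed line marks the median of all probe sets at -0.135.

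CIPK10 fell with salt in all 4 of its probe sets, Os.8095.1.S1_at to Os.8095.1.S4_at, called S1 to S4 here. S2 read 475 and 460.1 in the tolerant control and 224 and 225 in its salt arrays, and 335 and 324 in the sensitive control and 124 and 113 in its salt arrays. Every salt array was below every control array, whichever the bulk. The average response was -1.25 ± 0.10 (log2, SE 0.103, limma over 4 salt and 4 control arrays, adjusted p = 3.5e-05), a fold of 2.37. S3 read 559 and 643 in the tolerant control and 213 and 244 in its salt arrays, and 321 and 439.9 in the sensitive control and 167 and 179 in its salt arrays. Here too no salt array reached a control array, and the response was -1.24 ± 0.13 (limma adjusted p = 0.00015). The calls of these 2 probe sets held when any 1 array was left out.

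The remaining CIPK10 probe sets fell by less. S4 read 220.5 and 188 in the tolerant control, 142 and 151 in its salt arrays, 134 and 161 in the sensitive control and 83.5 and 50.4 in its salt arrays. S1 read 105 and 99.9 in the tolerant control, 65.1 and 62.0 in its salt arrays, 55.8 and 65.5 in the sensitive control and 32.8 and 39.4 in its salt arrays. Within each bulk salt was below control, while the tolerant salt arrays overlapped the sensitive control arrays. The average response was -0.80 ± 0.17 for the first (-0.795, SE 0.167, limma adjusted p = 0.0097) and -0.67 ± 0.16 for the second (adjusted p = 0.017). The call of S4 was lost without tolerant control replicate 1 (adjusted p = 0.058), and that of S1 without any tolerant array or sensitive salt replicate 1 (up to 0.079).

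CIPK7, tied to chilling tolerance in rice, gave discordant probe sets. Os.19815.1.S1_at read 938 and 925 in the tolerant control and 407 and 377 in its salt arrays, and 1157 and 709.7 in the sensitive control and 311 and 313 in its salt arrays. The salt arrays lay well below all control arrays, and the average response of -1.38 ± 0.14 was the largest fall among the members tested (limma adjusted p = 0.00014, a fold of 2.61). Os.12861.1.S1_at read 1755 and 1741, then 1475 and 1727 in the tolerant bulk, and 1565 and 1462, then 1310.3 and 1334 in the sensitive bulk. This second probe set was at -0.16 ± 0.09 (-0.162, SE 0.086, limma adjusted p = 0.25), so the fall rests on a single probe set.

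CIPK21 and CIPK25 each have a single probe set. CIPK21 read 154 and 132 in the tolerant control and 88.7 and 91.1 in its salt arrays, and 149 and 116 in the sensitive control and 57.5 and 60.9 in its salt arrays. CIPK25 read 779.6 and 685, then 492 and 374 in the tolerant bulk, and 689.7 and 718, then 435 and 475 in the sensitive bulk. For both genes every salt array was below every control array. CIPK21 fell by 0.87 ± 0.14 (limma adjusted p = 0.0025) and CIPK25 by 0.69 ± 0.11 (adjusted p = 0.0023), and both calls held without any 1 array and after quantile normalization.

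CIPK23, the AKT1-activating kinase, again had probe sets that disagreed. Os.9372.1.S1_at read 571 and 577 in the tolerant control and 474 and 466 in its salt arrays, and 619.6 and 514 in the sensitive control and 365 and 368 in its salt arrays. Os.27738.1.S1_at read 51.8 and 65.7, then 102 and 74.3 in the tolerant bulk, and 60.3 and 63.6, then 80.7 and 66.8 in the sensitive bulk. The first fell, by 0.45 ± 0.10 (limma adjusted p = 0.012), with all salt arrays below all control arrays. The second pointed the other way without passing the test (0.39 ± 0.17, adjusted p = 0.16).

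CIPK18 and CIPK2 showed the smallest falls that passed the test. CIPK18 read 762 and 694 in the tolerant control and 556 and 613 in its salt arrays, and 740.1 and 757 in the sensitive control and 565 and 519 in its salt arrays. CIPK2 in Os.4627.2.S1_at read 556 and 486, then 364 and 446 in the tolerant bulk, and 489 and 498, then 398 and 371 in the sensitive bulk. Salt arrays were below control arrays throughout, and the responses were -0.39 ± 0.09 for CIPK18 (limma adjusted p = 0.018) and -0.36 ± 0.11 for CIPK2 (adjusted p = 0.044). The other CIPK2 probe sets did not pass: Os.4627.1.S1_x_at, which read 1236 to 1388 on all bulk arrays, was at -0.02 (-0.021) and the dim Os.37303.1.S1_at at -0.43 ± 0.36 (adjusted p = 0.48). After quantile normalization CIPK18 was at -0.155 (limma adjusted p = 0.32), CIPK23 Os.9372.1.S1_at at -0.223 (0.092) and CIPK2 Os.4627.2.S1_at at -0.127 (0.5), and these 3 calls were lost. Each was also lost without either tolerant control array or either sensitive salt array, CIPK18 in addition without tolerant salt replicate 1, CIPK23 without tolerant salt replicate 2 and CIPK2 without either, with adjusted p up to 0.1, 0.062 and 0.19. CIPK2 was lost without the filter too (adjusted p = 0.064).

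CIPK5 and CIPK16 were the members that rose. CIPK5 read 312 and 314 in the tolerant control and 410.1 and 401 in its salt arrays, and 353 and 317 in the sensitive control and 756 and 731 in its salt arrays. Every salt array was above every control array, with the sensitive salt arrays highest, and the average response was 0.76 ± 0.10 (0.756, SE 0.095, limma adjusted p = 0.00057, a fold of 1.69). CIPK16 read 34.03 and 27.5 in the tolerant control and 90.5 and 68.7 in its salt arrays, and 70.7 and 34.7 in the sensitive control and 66.0 and 73.9 in its salt arrays. Its tolerant groups were apart while its sensitive groups overlapped, and the average response was 0.86 ± 0.23 (0.859, SE 0.227, limma adjusted p = 0.029). The CIPK16 call was lost without any 1 array other than the sensitive controls (adjusted p up to 0.12) and without the filter (0.065), and its only probe set, Os.11334.1.S1_x_at, is of the kind that can match related transcripts.

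**Figure D2:**
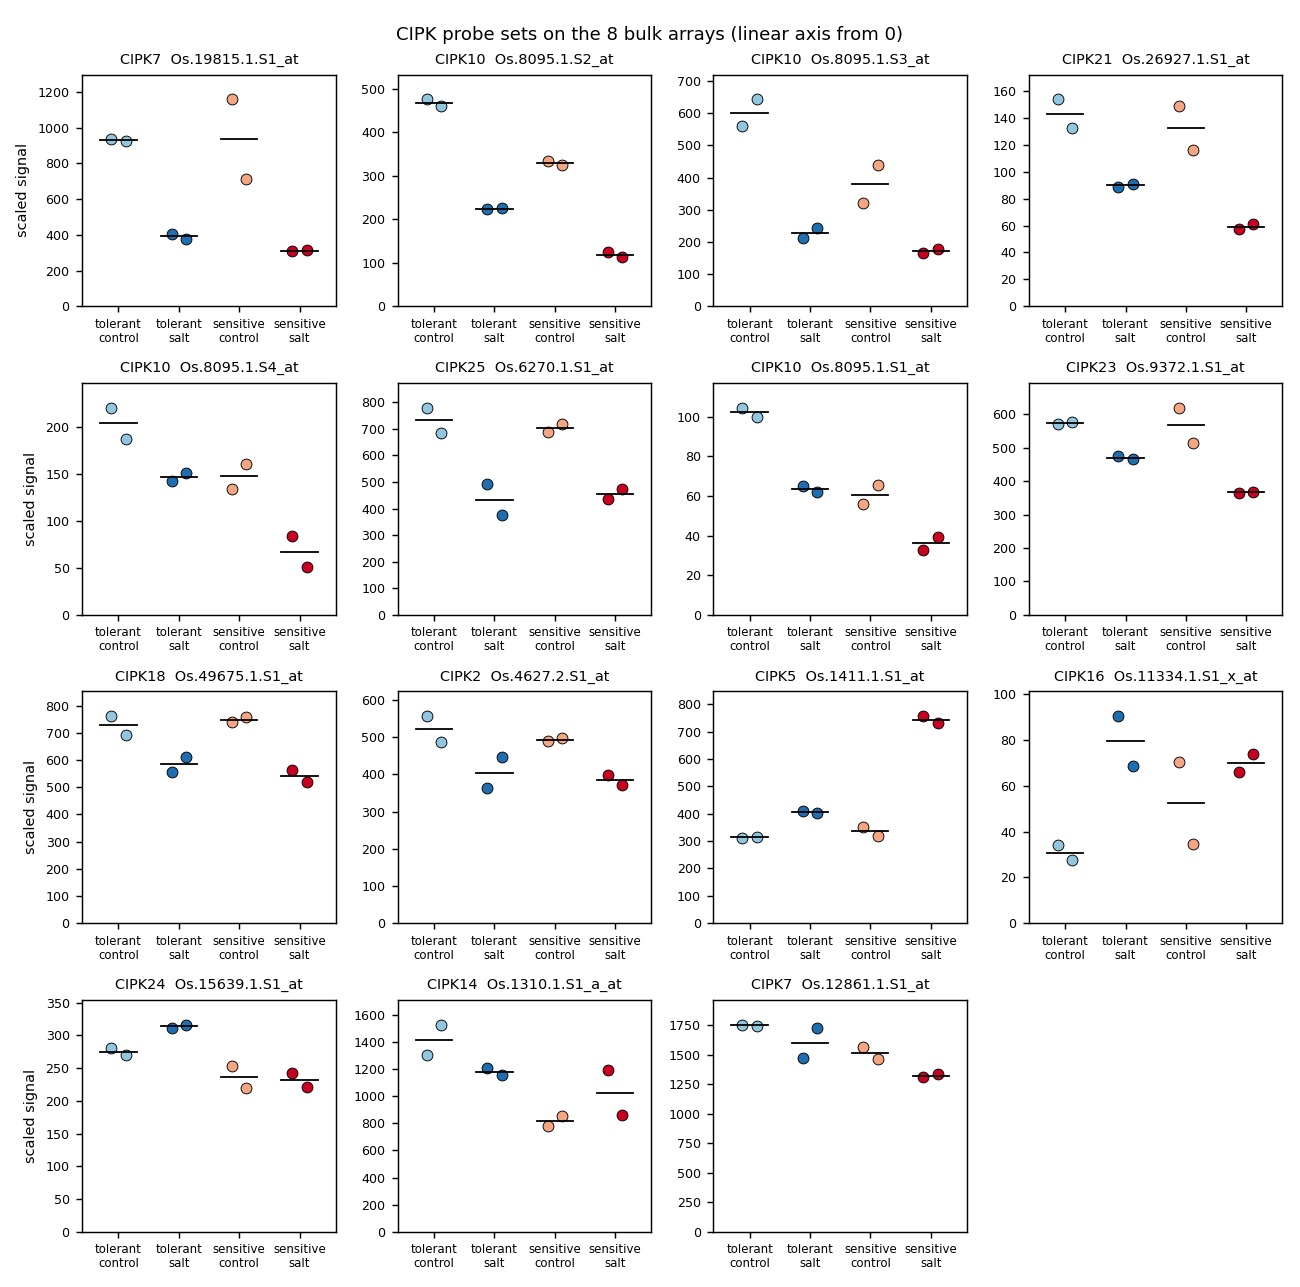
Each panel is 1 CIPK probe set and shows its scaled signal on a linear axis from 0 for the 2 arrays of each bulk group (points), with a line at the group mean. In CIPK10 the 4 panels step down with salt in both bulks, CIPK5 steps up most in the sensitive bulk, and the CIPK24 arrays lie between 219 and 317.

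CIPK24, the rice SOS2 kinase, did not pass the test for salt in either bulk. It read 280.5 and 269.9 in the tolerant control and 311 and 317 in its salt arrays, and 254 and 219 in the sensitive control and 242 and 221 in its salt arrays. Salt was above control in the tolerant bulk, and in the sensitive bulk the groups overlapped. The average response was 0.08 ± 0.11 (SE 0.107, 95% interval -0.156 to 0.316, limma adjusted p = 0.69). After quantile normalization it was at 0.295 (adjusted p = 0.056).

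The other 14 genes without a call, in 1 or more probe sets each, are given by their ranges, and 3 probe sets were too dim to be tested. Besides the second CIPK23 and CIPK2 probe sets, the largest response without a call was that of CIPK12 Os.32856.1.S2_at, a gene whose overexpression improves drought tolerance in rice. It read 22.6 and 13.4, then 12.9 and 15.1 in the tolerant bulk, and 25.9 and 19.8, then 4.38 and 14.4 in the sensitive bulk, at -0.68 ± 0.38 (limma adjusted p = 0.27). CIPK8 was at -0.31 ± 0.11 (adjusted p = 0.088). CIPK1, CIPK6, CIPK11, CIPK14, CIPK17, CIPK19, CIPK20, CIPK26, CIPK29, CIPK31 and the tested CIPK32 probe set had average responses between -0.283 (CIPK29) and 0.194 (CIPK6). Their precision differed: the SE was 0.080 for CIPK1 and 0.462 for CIPK20. CIPK30, which neighbours CIPK12 in the RefSeq annotation of assembly ASM3414082v1, was not tested, reading 0.49 to 12.3 on the bulk arrays.

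Within the tolerant bulk alone 1 member rose and 4 fell (limma), 16.1% of those tested, beside 5.41% of all probe sets (0.985% higher and 4.42% lower). Salt and control arrays did not overlap for 20 members that were lower and 5 that were higher, beside 38.9% and 16% of all probe sets. CIPK16 rose by 1.26 ± 0.32 (adjusted p = 0.048). CIPK10 fell in S3 (-1.38 ± 0.18, adjusted p = 0.0015, a fold of 2.6) and in S2 (-1.05 ± 0.15, SE 0.145, adjusted p = 0.0023). CIPK7 Os.19815.1.S1_at fell by 1.24 ± 0.20 (adjusted p = 0.0051) and CIPK25 by 0.76 ± 0.16 (adjusted p = 0.019). The median member was at -0.278 beside -0.136 for all probe sets tested, and at -0.071 after quantile normalization. After that normalization CIPK25 no longer passed (-0.546, adjusted p = 0.085) and CIPK5 did (0.578, adjusted p = 0.016), and without the filter on dim values CIPK16 was lost (adjusted p = 0.11). The 2 CIPK10 calls held without any 1 array. CIPK7 and CIPK25 lost theirs without tolerant control replicate 1, tolerant control replicate 2 or tolerant salt replicate 2, and CIPK16 without any 1 array other than the sensitive controls (adjusted p up to 0.28).

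Within the sensitive bulk 1 member rose and 7 fell (limma), 25.8% of those tested, beside 6.51% of all probe sets (1.74% higher and 4.77% lower). Salt and control arrays did not overlap for 14 members that were lower and 4 that were higher, beside 33.4% and 15.3% of all probe sets. CIPK5 rose by 1.14 ± 0.13 (adjusted p = 0.00086, a fold of 2.21). CIPK10 fell in S2 (-1.45 ± 0.15, SE 0.145, adjusted p = 0.00035, a fold of 2.72), S4 (-1.13 ± 0.24, adjusted p = 0.02) and S3 (-1.104 ± 0.179, adjusted p = 0.006). CIPK7 Os.19815.1.S1_at (-1.53 ± 0.20), CIPK21 (-1.103 ± 0.201), CIPK25 (-0.63 ± 0.16) and CIPK23 Os.9372.1.S1_at (-0.62 ± 0.14) fell too (adjusted p of 0.0017, 0.011, 0.041 and 0.027). The median member was at -0.194 beside -0.148 for all probe sets tested, and at 0.017 after quantile normalization. After that normalization CIPK25 and CIPK23 no longer passed (adjusted p of 0.2 and 0.071) and CIPK1 did (0.39, adjusted p = 0.032), and without the filter CIPK25 was lost (adjusted p = 0.071). The calls of CIPK5, CIPK10 S2 and CIPK7 held without any 1 array. The other 5 were lost without sensitive salt replicate 2, and those of CIPK10 S3, CIPK21, CIPK25 and CIPK23 also without sensitive salt replicate 1, CIPK25 without either tolerant control array and CIPK23 without any tolerant array (adjusted p up to 0.22).

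The difference between the salt responses of the bulks was called for 0 members (limma, adjusted p, 4 at an unadjusted p under 0.05), beside 0.173% of all probe sets (6.86% unadjusted). CIPK5 came closest: its response was 0.37 ± 0.13 in the tolerant bulk (adjusted p = 0.16, or 0.016 after quantile normalization) and 1.14 ± 0.13 in the sensitive bulk, a difference of -0.77 ± 0.19 (unadjusted p = 0.0019, adjusted p = 0.31). That difference passed only in the fit without sensitive control replicate 1 (-0.849, adjusted p = 0.039). The other members under 0.05 unadjusted were CIPK1 (-0.47 ± 0.16, adjusted p = 0.57), CIPK14 (-0.57 ± 0.23, adjusted p = 0.67) and CIPK20 (2.10 ± 0.92, adjusted p = 0.72). For CIPK10 the differences ran from -0.277 (S3) to 0.666 (S4), and for CIPK24 the difference was 0.22 ± 0.21 (0.215, SE 0.214, adjusted p = 0.91). Other lists of transcripts moved with this contrast. Of 16 tested seed and endosperm probe sets 8 fell in the tolerant bulk, 6 rose in the sensitive bulk and 7 had a lower response in the tolerant bulk (limma calls). All 9 tested leaf photosynthesis probe sets had a lower response in the tolerant bulk (median difference -0.945, 0 called by limma and 7 at an unadjusted p under 0.05). Of the 5 probe sets of the salt-induced genes 4 had a lower response in the tolerant bulk and 1 a higher response. Their median difference was -1.165, and 2 probe sets of 1 gene were called (limma). Their summed signal in salt was 6510 and 6499 in the tolerant bulk and 9471 and 9465 in the sensitive bulk. The part of these lists in the CIPK values was not tested. A call in a single bulk, such as that of CIPK16 or CIPK21, was thus not shown to be particular to that bulk.

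**Figure D3:**
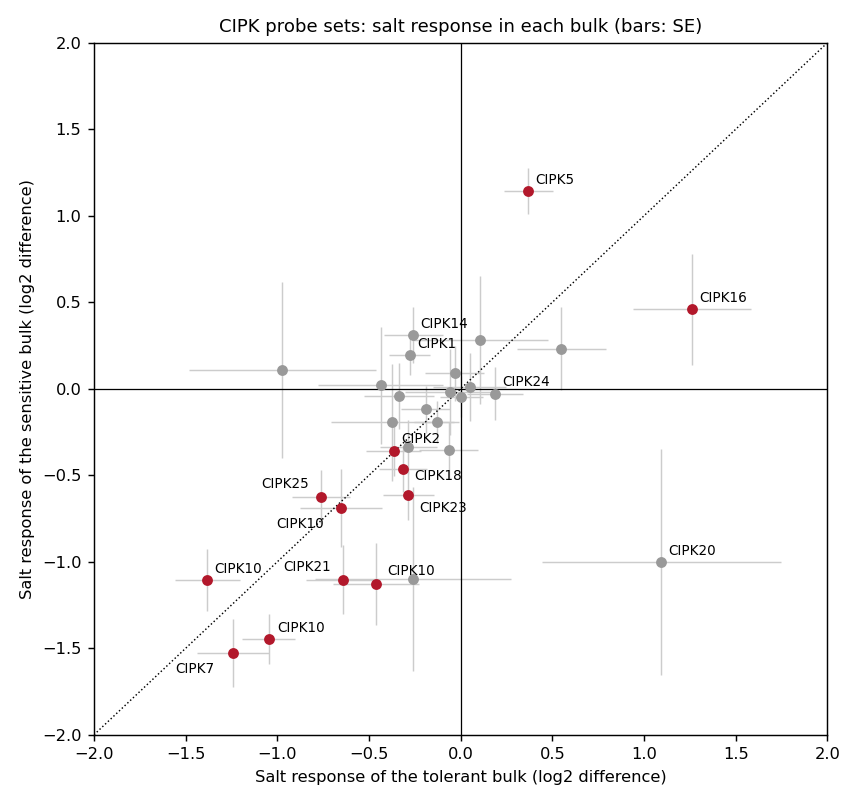
Each point is a CIPK probe set with its salt response in the tolerant bulk on the horizontal axis and in the sensitive bulk on the vertical axis, both in log2 units, with SE bars, red for those called in the average and a dotted line of equality. The CIPK10 and CIPK7 points lie low in both bulks, and CIPK5 lies above the line at 0.369 and 1.143.

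Between the bulks in control conditions CIPK14, a kinase of microbe-triggered responses in rice cells, was the only member called (limma, 3.23% of those tested), beside 1.45% of all probe sets (1.18% higher and 0.27% lower). It read 1310.2 and 1531 in the tolerant control and 782 and 853 in the sensitive control, without overlap, a difference of 0.79 ± 0.16 (adjusted p = 0.041). The call was lost without any 1 tolerant array (adjusted p up to 0.4) and after quantile normalization (0.646, adjusted p = 0.071). The 4 CIPK10 probe sets were 0.46 to 0.72 higher in the tolerant control without passing (adjusted p from 0.11 to 0.42). The median member was at 0.054 beside 0.089 for all probe sets tested. Seed and endosperm transcripts moved with this contrast too. Their 17 probe sets, of 7 genes and none at 0, summed to 11053 and 12837 in the tolerant control. The sums were 1715 and 1597 in the sensitive control and 4830 to 5000 on the 4 salt arrays. Most of the tolerant control sums came from AMY1.1 (4659 and 5590) and an OsGBSS1 probe set (3825 and 4791). Taken singly, 13 of the 16 tested seed and endosperm probe sets were higher in the tolerant control and 3 lower. Of these, 9 probe sets of 6 genes were called, all higher (limma). Their part in the CIPK values was not tested.

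Between the bulks in salt 2 members were higher and 1 lower in the tolerant bulk (limma, 9.68% of those tested), beside 1.28% of all probe sets (0.718% higher and 0.564% lower). CIPK10 was higher in the tolerant bulk in S2 (0.90 ± 0.15, SE 0.145, adjusted p = 0.016) and S4 (1.13 ± 0.24, SE 0.236, adjusted p = 0.049), from the values given above, which did not overlap. S1 and S3 had the same sign without passing (0.757 and 0.391, adjusted p of 0.15 and 0.34). CIPK5 was lower in the tolerant bulk by 0.87 ± 0.13 (-0.867, adjusted p = 0.013). CIPK24 was at 0.43 ± 0.15 (0.433, adjusted p = 0.21), with its tolerant salt arrays above its sensitive salt arrays, and passed in the fits without sensitive control replicate 1 or 2 (adjusted p = 0.041 in each). The median member was at 0.166 beside 0.1 for all probe sets tested. All 3 calls were lost without any 1 of the 4 salt arrays (adjusted p up to 0.16 for CIPK5, 0.19 for S2 and 0.34 for S4), and those of CIPK10 also without either tolerant control array. The S4 call was lost without the filter as well (adjusted p = 0.097). In this contrast all 9 tested leaf photosynthesis probe sets were lower in the tolerant bulk (median -0.477, 1 called), as were 12 of 16 seed and endosperm probe sets (median -0.349, 1 called), and their part in the CIPK values was not tested.

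Among the calcium sensors that switch CIPKs on, 1 of 7 tested probe sets fell in the average of the bulks and none rose, 14.3% lower beside 12.2% of all probe sets. It was CBL4, the SOS3 partner of CIPK24, which read 146 and 128 in the tolerant control and 44.8 and 65.4 in its salt arrays, and 150.3 and 152 in the sensitive control and 52.6 and 86.3 in its salt arrays. Salt was below control in each bulk, with a response of -1.20 ± 0.19 (-1.195, SE 0.185, limma adjusted p = 0.0019), which held without any 1 array. CBL2, CBL3, CBL6, CBL9 and CBL10 lay between -0.306 (CBL6, adjusted p = 0.055) and -0.010 (CBL9). CBL1 and CBL7 had no probe set of their own and were not analysed here.

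Of 12 tested probe sets of ion transporters named as CIPK or CBL targets in plants, 1 fell and none rose, 8.33% lower beside 12.2% of all probe sets. OsAMT1;1, an ammonium transporter of a family that CIPK23 phosphorylates in Arabidopsis, read 529 and 456 in the tolerant control and 279 and 251 in its salt arrays, and 1073 and 663 in the sensitive control and 399.8 and 426 in its salt arrays. It fell by 0.95 ± 0.15 (-0.953, SE 0.145, limma adjusted p = 0.0017), with salt below control in each bulk. The potassium channel OsAKT1 was at -0.05 ± 0.15 (-0.052, SE 0.154, adjusted p = 0.87) and OsHKT1;5, a sodium transporter, at 0.17 ± 0.16 (0.165, SE 0.161, adjusted p = 0.56). In the tolerant bulk alone 2 of the 12 fell, 16.7% beside 4.42% of all probe sets. They were OsAMT1;1 and OsHAK5 Os.17158.1.S1_at (-1.737, limma adjusted p = 0.0097). The latter read 63.2 and 63.3, then 22.0 and 11.6. In the sensitive bulk it read 33.9 and 43.1, then 50.2 and 50.6. Its call did not hold in every fit without 1 array. The other OsHAK5 probe set was at -0.231 in the tolerant bulk. The difference between the bulks was called for 0 of the list.

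Kinases of neighbouring families gave a mixed picture. Of 18 tested probe sets of CDPK kinases, which bind calcium themselves, 5 fell, 27.8% lower beside 12.2% of all probe sets. They were led by CDPK1, which read 1018 and 1047, then 575 and 575 in the tolerant bulk, and 918 and 932, then 544 and 478 in the sensitive bulk. It fell by 0.85 ± 0.09 (-0.847, SE 0.089, limma adjusted p = 0.00018), CDPK4 by 0.60 (-0.597, adjusted p = 0.034) and CDPK20 by 0.52 (-0.522, adjusted p = 0.021). After quantile normalization 2 of the CDPK probe sets fell and 1 rose, and CDPK4 and CDPK20 no longer passed (adjusted p of 0.07 and 0.11). Of 10 tested probe sets of SAPK kinases, which belong to the abscisic acid pathway, 2 fell, 20% beside the same 12.2%. These were SAPK5 (-0.37, limma adjusted p = 0.038) and SAPK8 (-0.36, adjusted p = 0.04). After quantile normalization they were at -0.128 and -0.12, and 3 other SAPK probe sets rose. The share of all probe sets called after that normalization is not given here. The medians of the CBL, transporter, CDPK and SAPK lists were -0.141, -0.257, -0.309 and -0.128, beside -0.135 for all probe sets tested.

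In the parent MI48 no member passed the test (limma on its 4 arrays, 0 of 34 by adjusted p and 16 at an unadjusted p under 0.05), beside 0% of all probe sets (23.7% unadjusted). CIPK10 S2 read 696 and 256 in control and 105 and 19.2 in salt, and S3 635 and 325 in control and 70.0 and 44.8 in salt. Control and salt did not overlap in either probe set, and the second value of each control pair is that of the array that went against its label. The responses were -3.09 ± 0.90 and -2.94 ± 0.59 (adjusted p of 0.15 and 0.14), and -3.81 and -3.42 without that array. S1 and S4 overlapped between control and salt (-1.51 and -1.36, and -3.04 and -2.04 without that array). The other probe sets called lower in the bulks were not lower in MI48 salt. CIPK7 Os.19815.1.S1_at was at 0.126, CIPK18 at 0.434, CIPK21 at 0.651 and CIPK25 at 1.362. CIPK23 Os.9372.1.S1_at was at 1.008 and CIPK2 Os.4627.2.S1_at at 1.467. After quantile normalization these CIPK7, CIPK18 and CIPK23 probe sets were at -1.072, -0.631 and -0.263. CIPK21, CIPK25 and CIPK2 were then at 0.137, 0.034 and 0.321.

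CIPK24 read 83.2 and 120.1 in MI48 control and 477 and 790.3 in MI48 salt, without overlap, at 2.57 ± 0.54 (adjusted p = 0.14), 2.83 without control replicate 2 and 1.39 after quantile normalization (1.392). Before scaling CIPK24 read 8.6 and 9.8 in MI48 control and 2239 and 198 in MI48 salt. CIPK10 S2 before scaling read 71.9 and 20.9 in control and 495 and 4.8 in salt. CIPK6 read 84.2 and 93.2 in control and 489 and 795 in salt, also without overlap, at 2.77 ± 0.52 (adjusted p = 0.14) and 1.62 after quantile normalization (1.617). CIPK16 read 55.2 and 31.9, then 305 and 238, at 2.58 ± 0.57 (adjusted p = 0.14). CIPK5 read 31.9 and 27.0, then 19.8 and 2004, so its salt arrays lay on both sides of its control arrays. Upward values were common on these arrays: the median of all probe sets tested was 0.762, and that of the members 1.38 (1.382), with 28 members higher and 6 lower. Without overlap of salt and control 21 members were higher and 3 lower, beside 45.5% and 9.35% of all probe sets. After quantile normalization the medians were 0.068 and 0.394, with 23 of 33 tested members higher. In the fit of the 14 arrays with rice signal, which takes the spread from the bulks as well, 20 members were called in MI48, 17 higher and 3 lower, among 11272 probe sets in all. Calls were thus common in this fit, and most went up: 9844 of the 11272 were higher, and the median of all probe sets was 0.589. There CIPK24 was at an adjusted p of 0.00049 and CIPK10 S3 at 0.00051 (limma).

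CSR27 had 1 array with rice signal per condition, so its values carry no replicate check. Between control and salt CIPK10 read 967 and 285 in S2, 846 and 416 in S3, 332 and 155 in S4 and 219.7 and 55.2 in S1, differences of -1.75, -1.02, -1.08 and -1.92. All 4 were lower on the salt array, as in the bulks. CIPK24 read 128 and 161 (0.324). CIPK5 read 71.6 and 31.0 (-1.11), lower on the salt array, where both bulks were higher. Of the 34 members 10 were higher and 24 lower on the salt array, and 9 of the 12 called in the bulks had the same sign. All 9 were members that fell in the bulks. CIPK16, which rose there, was lower (-0.458), and CIPK2 Os.4627.2.S1_at, which fell there, was higher (0.670). The share of all probe sets lower on this salt array was not counted, so these counts have no background beside them. Leaf and root transcripts varied across the parent arrays. The 7 root probe sets summed to 2521 and 9005 in MI48 control and 1289 and 303 in MI48 salt. They summed to 5240 and 6157 in CSR27 control and salt, against 940 to 1308 on the bulk arrays. On MI48 control replicate 2 most of the sum came from OsNAS2 (3447), OsNAS1 (3006), OsIRT1 (1317) and osysl15 (934). Not all root probe sets followed the sum. The brightest PHO1-2 probe set read 370 and 238 in MI48 control and 438 and 59.2 in MI48 salt. It read 176 and 138 in CSR27 control and salt, against 404 to 611 on the bulk arrays. The 10 leaf probe sets summed to 113586 on MI48 salt replicate 2, to 20931 to 29256 on the other 5 parent arrays and to 34883 to 62690 on the bulk arrays. Their part in the parent values was not tested.

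**Figure D4:**
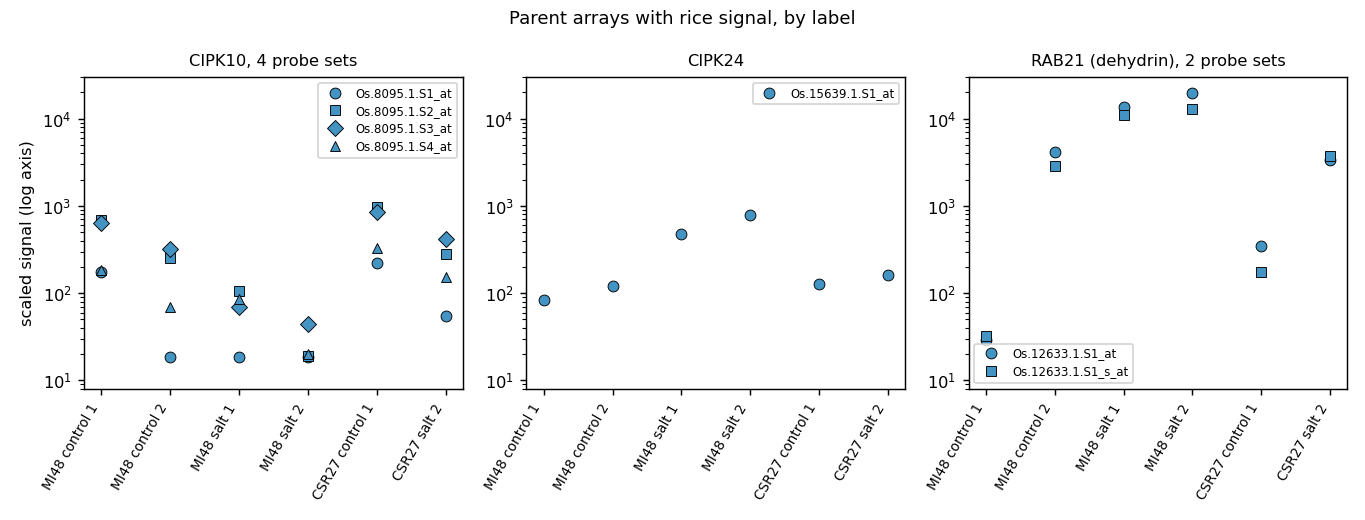
Scaled signals (log axis) of the 4 CIPK10 probe sets, CIPK24 and RAB21 on the 6 parent arrays with rice signal, named along the horizontal axis by their labels. CIPK10 S2 is lowest on MI48 salt replicate 2 at 19.2 and highest on CSR27 control replicate 1 at 967, and RAB21 on the array labelled MI48 control replicate 2 (4132) is near CSR27 salt replicate 2 (3372).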

How the data were processed

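The authors deposited Affymetrix probe set signals, intensity values on a linear scale. Per the submitters' processing notes the tool was GCOS 1.2, and the labels name 8 µg of total RNA as input. How GCOS was set and scaled is not given in the sources used here. No column of per-sample values stayed unused (0). Dropping 123 control probe sets left 57258 of 57381, of which 22436 had 1 gene and 95 several. Each array was scaled to the median of the 8 bulk arrays (18.4). Probe sets at or above this value on at least 2 arrays of a fit entered limma 3.58.1 (R 4.3.3, group means, trended variance) with two-sided p adjusted by Benjamini-Hochberg over all tested and a threshold of 0.05, as log2(signal + 4.002), the pseudocount being the 25th percentile. The bulks were fitted on 8 arrays and MI48 on its 4 (31067 tested, pseudocount 3.68). The median residual SD was 0.262 in the bulks and 0.688 in MI48. The procedure was tested on simulated data. Array values are given for every member called in a bulk comparison and for CIPK10 and CIPK24, and other members by range, with the 3 largest responses without a call; CIPK6 and the arrays of list genes were chosen after their values were seen. The members and lists were chosen with earlier results of these data known. Alternatives tried were quantile normalization, testing without a filter, 0.25 of the pseudocount, a replicate block, 14 or 16 arrays in 1 fit and each array left out.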

Additional observations from a re-analysis of the deposited data

Results flagged for a closer look

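Tolerant and sensitive bulks moved in opposite directions, with no overlap of salt and control arrays in either, for 2 members. Of all probe sets 38.9% were lower without overlap in the tolerant bulk and 15.3% higher without overlap in the sensitive bulk. The share of all probe sets that did both was not counted, so the 2 members cannot be set against it. CIPK1 was at -0.278 in the tolerant bulk and 0.195 in the sensitive bulk, a difference of -0.474 (limma adjusted p = 0.57). CIPK14 was at -0.258 and 0.312, a difference of -0.57 (adjusted p = 0.67). After quantile normalization their values were no longer opposite: CIPK1 was at 0.010 and 0.390 and CIPK14 at 0.009 and 0.551 in the tolerant and the sensitive bulk.

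In MI48, 4 members were higher in salt without overlap, where both bulks were lower without overlap. These differences between MI48 and the bulks were not tested, and 45.5% of all probe sets were higher without overlap in MI48. In the bulks 38.9% (tolerant) and 33.4% (sensitive) were lower without overlap. The share of all probe sets that met these rules together was not counted. CIPK31 Os.12261.1.S1_a_at was at 1.666 in MI48 (0.376 after quantile normalization) and at -0.064 and -0.356 in the tolerant and the sensitive bulk (0.143 and -0.119 after quantile normalization, so that MI48 was then opposite to the sensitive bulk alone). CIPK2 Os.4627.2.S1_at was at 1.467 (0.321), beside -0.365 and -0.357. CIPK8 was at 0.952 and CIPK23 Os.9372.1.S1_at at 1.008, and both turned negative after quantile normalization (-0.147 and -0.263). The bulks had CIPK8 at -0.286 and -0.335 and CIPK23 Os.9372.1.S1_at at -0.286 and -0.617.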

How the results depend on the processing

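Without filter, with 0.25 of the pseudocount and with the replicate block, the counts of called members stayed within 1.5 times of the main counts, except that the control comparison of the bulks fell from 1 to 0 without filter and, likewise, after quantile normalization. Without filter the calls of CIPK16 (tolerant bulk and average), CIPK2 Os.4627.2.S1_at (average), CIPK25 (sensitive bulk) and CIPK10 S4 (between the bulks in salt) were lost. With the replicate block the counts were 5 in the tolerant bulk, 8 in the sensitive bulk, 12 in their average, 1 in control and 3 in salt between the bulks, and 0 for the difference and MI48, as without it. Same-numbered arrays did not deviate together (correlations of 0 to 0.027 over 6 pairs of groups). In the 14-array and the 16-array fit all bulk counts were 0, where 0 to 25 of all probe sets were called. MI48 had 20 calls with 14 arrays, beside 11272 over all probe sets. Leaving out 1 array gave 2 to 7 calls in the tolerant bulk, 3 to 11 in the sensitive bulk, 6 to 15 in the average, 0 to 5 and 0 to 6 between the bulks in control and in salt, 0 to 1 for the difference and 0 in MI48. The average was lowest without tolerant control replicate 1 (6) and highest without sensitive control replicate 2 (15). The counts over all probe sets in the fits without 1 array are not given here. The ranges of member calls in these fits thus have no background beside them and are not shown to be particular to the members. After quantile normalization 7 members turned direction in the tolerant bulk, 6 in the sensitive bulk and 7 in the average, 5 and 3 between the bulks in control and in salt and 5 in MI48, and 0 of these had been called. Among values followed over all settings, directions turned for CIPK24 in the sensitive bulk after quantile normalization (0.2) and among the fits without 1 array (-0.131 to 0.076; above 0 without sensitive control replicate 1 and, at 0.037, without sensitive salt replicate 2), for CIPK10 S1 in MI48 without control replicate 1 (0.003, against -3.036 without control replicate 2), and after quantile normalization in MI48 for CIPK8 (-0.147) and CIPK23 Os.9372.1.S1_at (-0.263). The cause was not tested. With 2 arrays a group, signal near the common median limits dim members such as CIPK12, CIPK20 and CIPK30.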
